A study of Arabidopsis thaliana with 12 samples.

Results

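QK, an Arabidopsis thaliana line lacking the class A1 heat shock factors, was compared with the wild-type accession Col-0 on 4 arrays each, out of 12 arrays in all, averaged over both temperatures. The seedlings were 7 days old and had grown at 22 °C on diluted MS medium with sucrose. They were sampled either from there (control) or after 1 h at 37 °C (heat). Each line and temperature had 2 biological replicates, so that 4 arrays stood for QK, 4 for Col-0 and 4 for Ws, a further wild-type accession. In the literature QK is described as a quadruple knockout built from mutant alleles of both accessions, so a difference from Col-0 can lie with the mutations or with the Ws part of its genome. The knocked-out genes were not analysed here, and no array therefore checks the genotype label directly.

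In replicate 2 of Col-0 the treatment labels and the data disagreed, with the heat-inducible RNAs high in the array labelled control and low in the array labelled heat. The comparison was built so that this does not enter it. The log2(signal + 16) values of the control and the heat array of a line and replicate were averaged, and the lines were compared by these averages, 2 for QK and 2 for Col-0. The Ws averages entered the fit for the estimate of the spread. A second quantity, the span, was the absolute log2 difference between both arrays of a line and replicate, which is the size of the heat-to-control gap whatever the labels. Signals below are given in the order replicate 1 control, replicate 1 heat, replicate 2 control, replicate 2 heat, by label.

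Class A1 heat shock factors are transcription factors that are held inactive by chaperones in unstressed cells. On heat they bind the promoters of chaperone genes and start the heat shock response. Small heat shock proteins hold unfolding proteins in solution, the HSP70 machine and its co-chaperones refold them, and calreticulin and its partners do so in the endoplasmic reticulum. A separate programme makes late embryogenesis abundant (LEA) proteins, storage proteins and oil-body proteins in the ripening seed, and its RNAs disappear as the seedling establishes itself.

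A small share of the tested probe sets was called different between QK and Col-0. Of 13631 probe sets tested, 81 were higher in QK (0.594%) and 121 were lower (0.888%), 202 in all (1.48%), at an adjusted p under 0.05 and at least 2-fold in limma. The median log2 difference over all tested probe sets was 0.06. Among the higher probe sets the median log2 difference was 2.33, with 2.24 in replicate 1 and 2.26 in replicate 2. Among the lower ones it was -1.95, with -1.96 and -1.93. Exactly 1 gene was given in the annotation used for 45 of the 81 higher and 75 of the 121 lower probe sets, each a different gene. The other called probe sets had no single gene there.

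The 2 replicate numbers paired the arrays of all lines, and with the replicate number as a block 323 probe sets were higher (2.37%) and 312 lower (2.29%), 4.66% in all, including all 81 and all 121 above. These counts rest on few degrees of freedom, 3 without the block. With QK and Col-0 alone and no block, 0 probe sets passed in limma in either direction, against 1536 at an unadjusted p under 0.05, and with the block 326 and 311 passed. Leaving out Col-0 replicate 1, Col-0 replicate 2, Ws replicate 1 or Ws replicate 2 left 0 calls in both directions. Without QK replicate 1 there were 73 higher and 36 lower, and without QK replicate 2 there were 31 and 43. The replicates are labelled biological, and in whole seedlings fewer cells of a type and less RNA per cell cannot be told apart.

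Among called genes with a probe set of their own, those with the largest differences above Col-0 included RNAs of the seed programme. A further 3 called probe sets with no single gene in the annotation used differed by more, up to log2 6.14. BGLU19, a beta-glucosidase, had signals of 12.7, 11.4, 46.0 and 60.8 in the Col-0 arrays and 751.1, 1300.9, 2289.9 and 2088.7 in the QK arrays. LEA18, a LEA protein, had 10.5, 8.9, 41.6 and 25.8 in Col-0 and 387.5, 994.6, 1030.1 and 1784.8 in QK. ICL, the isocitrate lyase with which seedlings feed on their oil, had 34.1, 41.8, 57.2 and 53.7 in Col-0 and 555.5, 1739.2, 2025.6 and 2203.7 in QK. In each of these genes the dimmest QK array was several times brighter than the brightest Col-0 array, and heat and control arrays of QK were both bright. The log2 differences were 5.08 ± 0.55 for BGLU19 (SE, adjusted p = 0.0289), 4.72 ± 0.48 for LEA18 (adjusted p = 0.0252) and 4.56 ± 0.40 for ICL (adjusted p = 0.0185), with 2 averages in each line. Col-0 signals of BGLU19 and LEA18 were mostly among the dim values of their arrays, whose 35th percentiles lay between 40.3 and 47.0, so the size of these differences depends on the 16 added before the logarithm.

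The same pattern was seen in further genes. AT3G17520, a LEA protein, had 9.3, 10.8, 50.1 and 44.0 in Col-0 and 659.7, 735.1, 1411.3 and 1572.2 in QK (log2 difference 4.68, adjusted p = 0.0346). AT2G28490, a cupin-type storage protein, had 7.7, 7.2, 13.5 and 13.4 in Col-0 and 136.2, 496.5, 862.7 and 715.8 in QK (4.17, adjusted p = 0.0358). M17, a LEA protein, stayed at 5.9 to 7.0 in Col-0 and had 79.3, 375.3, 453.4 and 759.7 in QK (3.93, adjusted p = 0.0436). The array labelled QK control replicate 1 was the dimmest QK array in all 3 genes, yet lay above every Col-0 array. AT1G04560, a membrane protein of the AWPM-19 family, differed by 3.99, AT1G54870, a short-chain dehydrogenase, by 3.86, AT3G54940, a papain-type protease, by 3.78, AT3G21380, a jacalin-type lectin, by 3.64 and AtLEA4-1 by 3.56. All 5 were called, and their 4 QK arrays lay above their 4 Col-0 arrays. Apart from 51.2 in Col-0 for AtLEA4-1, their Col-0 and Ws signals lay under 40.3, the lowest 35th percentile of an array. They thus passed the filter on dim probe sets through QK, and the lack of overlap is not read further.

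**Figure D1:**
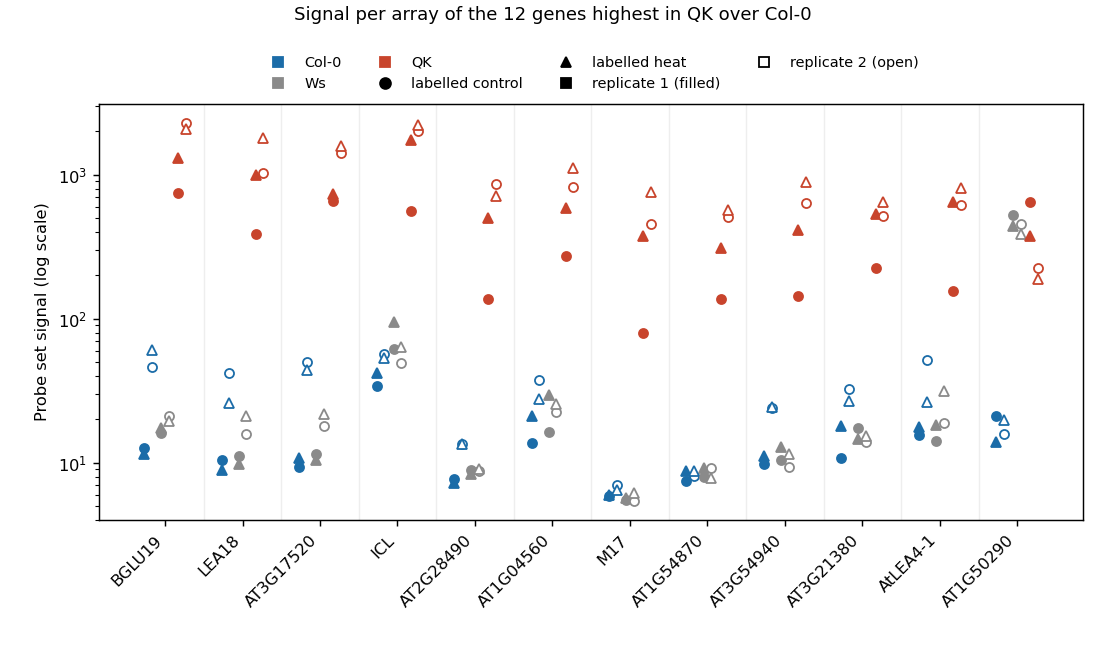
Signals of the 12 genes with the largest called differences above Col-0, on a log axis, 1 point for each of the 12 arrays. Colours separate Col-0, Ws and QK, circles are arrays labelled control and triangles arrays labelled heat, filled for replicate 1 and open for replicate 2. In 11 of the 12 genes Ws lies with Col-0, and in AT1G50290 it lies with QK.

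Counted by list, 6 of 8 tested genes for storage proteins and oil bodies were higher in QK, against 0.594% of all probe sets, and 0 were lower, with a median log2 difference of 3.53. With the replicate block 8 of 8 were higher, against 2.37%. AT2G25890, an oleosin that coats oil bodies, had 7.0, 10.3, 24.1 and 22.1 in Col-0 and 200.9, 194.2, 468.1 and 353.3 in QK (log2 difference 3.28, adjusted p = 0.0359). The members not called were AT3G01570, an oleosin (2.65, adjusted p = 0.0633), and PAP85, a storage protein of the vicilin type (1.72, adjusted p = 0.105). Because 7 of the 8 passed the filter on dim probe sets through their QK arrays alone, they had to lie higher in QK to be tested at all, and the count says nothing beyond their values. Of 28 genes on the list 10 had a probe set of their own, and the other two of these, OLEO3 and AT1G03890, stayed at signals of 8.3 to 47.6 on all 12 arrays and were not tested.

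Of 20 tested genes on the LEA list, which does not hold M17, 3 were higher (against 0.594% of all probe sets) and 0 lower. The 3 were LEA18, AT3G17520 and AtLEA4-1, and with the replicate block 11 were higher (against 2.37%). The median log2 difference was 1.83. The QK arrays lay above all Col-0 arrays in 14 of the 20, and in 5.86% of all tested probe sets. Since 11 of the 20 had passed the filter only through QK, and so were largely bound to lie higher there, nothing is read from these counts. AT3G02480 had 9.8, 12.1, 118.4 and 71.3 in Col-0 and 462.2, 1921.1, 2039.6 and 2560.9 in QK, a log2 difference of 4.78 that missed the threshold (adjusted p = 0.0688, and 0.00104 with the block). AT3G15670 differed by 4.09 (adjusted p = 0.0531, and 0.00246 with the block) and LEA4-5 by 2.82 (adjusted p = 0.192). In AT3G02480, LEA4-5 and BGLU19 the replicate 2 arrays were brighter than the replicate 1 arrays in Col-0 as well as in QK.

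In 4 other members of the LEA list, picked after their values were seen, the lines overlapped. COR47 had 3717.7, 5573.4, 4329.8 and 1157.4 in Col-0 and 4103.0, 4897.5, 2887.0 and 3471.7 in QK, a log2 difference of 0.24 (adjusted p = 0.887). LTI30 differed by 0.49, COR15A by -0.13 and COR15B by -0.56. None of these 4 genes was called with the block either. Among 4 genes of seed oil use ICL alone was called, against 0.594% of all probe sets called higher. SDP1, the lipase that opens oil bodies, differed by -0.20, AIM1 of fatty acid breakdown by 0.34 and PPDK, pyruvate orthophosphate dikinase, by 0.76.

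**Figure D2:**
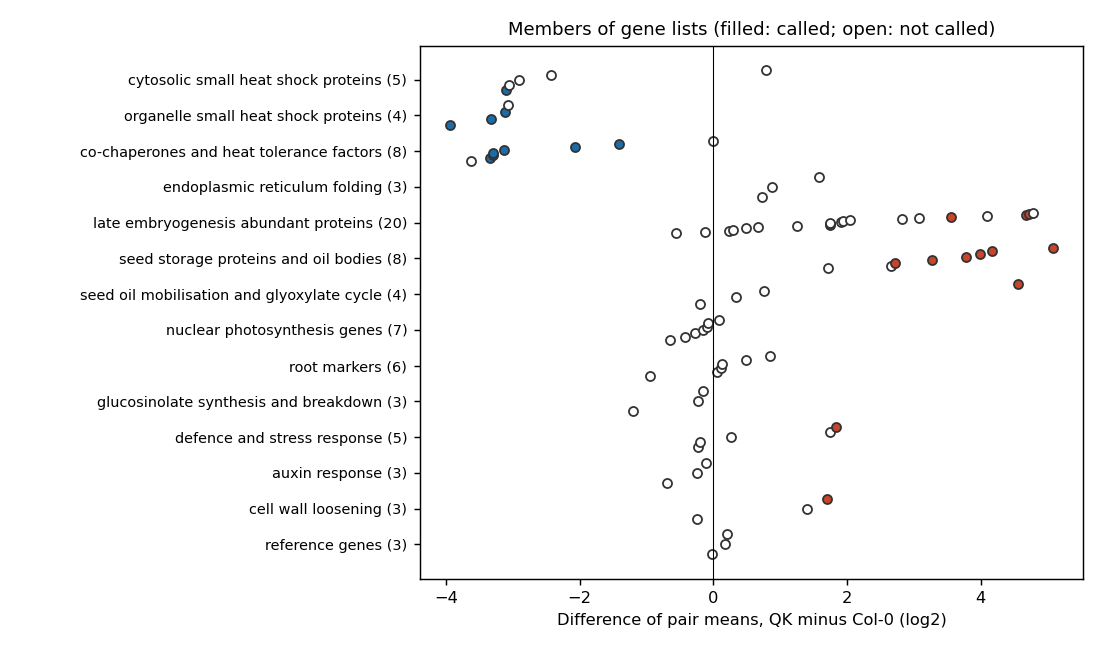
Log2 difference QK minus Col-0 of each tested list member, 1 point per gene, for nuclear lists with at least 3 tested members, filled where the gene was called. Storage and oil-body genes lie highest, most small heat shock proteins and co-chaperones lie near -3, and photosynthesis, root and reference genes lie around 0. Of the storage and oil-body genes 7 of 8, and of the LEA genes 11 of 20, passed the filter on dim probe sets only through QK. Nothing is read from the high place of these lists.

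Outside the seed lists, CCS, which delivers copper to superoxide dismutase, was higher in QK at both temperatures. Its signals were 152.7, 130.2, 96.7 and 142.0 in Col-0 and 932.0, 651.4, 572.0 and 555.7 in QK. The log2 difference was 2.23 ± 0.23 (adjusted p = 0.0269), and the groups lay far apart. Its span differed by -0.07 between the lines (adjusted p = 0.922). GSTU25, a glutathione transferase and the other tested member of its list, differed by 0.33 (adjusted p = 0.911).

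The higher probe sets fell into those with and those without a wider heat-to-control gap. In 64 of the 81 the span was not called different, and in 17 it was larger in QK, against 0.88% of all tested probe sets. UGT76B1, a glucosyltransferase of defence metabolism, had 106.4, 99.3, 85.9 and 61.2 in Col-0 and 155.7, 639.1, 164.5 and 877.6 in QK (log2 difference of the level 1.84, adjusted p = 0.0289). XTH33, a xyloglucan-modifying enzyme of the cell wall, had 110.8, 76.1, 68.8 and 82.5 in Col-0 and 126.9, 621.2, 137.8 and 756.7 in QK (1.70, adjusted p = 0.0363). In both genes the QK heat arrays carried most of the difference in level, while the QK control arrays lay just above the Col-0 arrays.

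Most of the lower probe sets had a smaller heat-to-control gap in QK. The span was smaller in QK in 81 of the 121, and in 67 of these the QK and Col-0 arrays overlapped. In these 67 the median span was log2 4.13 and 4.11 in Col-0, 4.16 and 4.13 in Ws, and 0.23 and 0.42 in QK. The lower average in QK thus went with a wide gap within each Col-0 pair and a narrow one within the QK pairs. Over all tested probe sets the span was smaller in QK at 240 (1.76%) and larger at 120 (0.88%), and the median span difference was 0.01. These counts were 106 and 27 without Col-0 replicate 1, 149 and 54 without Col-0 replicate 2, and 177 and 197 without QK replicate 2.

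Among genes with a probe set of their own, the organelle small heat shock protein AT1G52560 had the widest loss of span. AT1G71000 of the co-chaperone list came next (-6.48), ahead of the other organelle members. AT1G52560, the protein HSP26.5, had 8.1, 6546.9, 6264.4 and 11.8 in Col-0 and 12.5, 10.2, 15.7 and 99.6 in QK. AT5G51440, the mitochondrial HSP23.5, had 28.6, 7118.1, 5540.2 and 64.2 in Col-0 and 7.6, 9.4, 8.4 and 157.7 in QK. AT5G37670, the peroxisomal HSP15.7, had 20.7, 5156.4, 4550.6 and 15.4 in Col-0 and 14.2, 15.3, 17.0 and 134.5 in QK. One array of each Col-0 replicate was bright, and among the QK arrays only heat replicate 2 stood clearly above the others. The level differed by -3.33 ± 0.39 (adjusted p = 0.0353) for AT1G52560, by -3.94 ± 0.47 (adjusted p = 0.0353) for AT5G51440 and by -3.13 ± 0.40 (adjusted p = 0.0404) for AT5G37670. Their spans differed by -6.96, -5.25 and -6.04 (adjusted p = 2.1e-04, 0.00163 and 3.8e-04).

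Of 4 tested organelle members 3 were lower in level, against 0.888% of all probe sets, and 4 had a smaller span, against 1.76%. With the replicate block all 4 were lower, against 2.29%. ATHSP22.0 of the endoplasmic reticulum, the fourth, had 16.1, 6968.5, 7620.5 and 22.7 in Col-0 and 15.8, 17.5, 16.7 and 358.4 in QK. Its level differed by -3.08 (adjusted p = 0.0916) and its span by -5.90 (adjusted p = 0.00128). Against the same shares, of 5 cytosolic members 1 was lower, or 4 with the block, and 4 had a smaller span, with a median level difference of -2.91. That 1 was AT2G19310, with 144.7, 3952.3, 4662.1 and 255.5 in Col-0 and 80.4, 68.1, 83.2 and 166.7 in QK (-3.11, adjusted p = 0.0196).

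HSP17.6C (AT1G53540) shows how far the QK replicates differed. Its signals were 12.8, 11501.6, 11977.2 and 11.7 in Col-0 and 11.3, 18.2, 10.4 and 914.7 in QK. The QK span was log2 0.33 in replicate 1 and 5.14 in replicate 2, against 8.64 and 8.76 in Col-0. The span difference of -5.97 ± 1.12 passed (adjusted p = 0.0054) and the level difference of -3.06 ± 0.75 did not (adjusted p = 0.167, and 0.0279 with the block). AT4G21870, also listed as cytosolic, had no wide span in any line and a level difference of 0.79 (adjusted p = 0.445).

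Co-chaperones followed the same course. Hop3, which links HSP70 to HSP90, had 11.1, 3150.4, 3182.3 and 35.5 in Col-0 and 9.2, 9.8, 9.0 and 67.3 in QK. AT1G71000, a J-domain protein, had 8.8, 3868.0, 2345.9 and 10.3 in Col-0 and 8.9, 10.2, 8.3 and 25 in QK. The cool Col-0 arrays were as dim as QK in AT1G71000, and the bright Col-0 arrays were over an order of magnitude above every QK array in both genes. Levels differed by -3.34 ± 0.38 for Hop3 (adjusted p = 0.0328) and -3.29 ± 0.22 for AT1G71000 (adjusted p = 0.0107), and spans by -5.53 (adjusted p = 4.7e-04) and -6.48 (adjusted p = 1.9e-04).

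Of 8 tested co-chaperones and heat tolerance factors 6 were lower (against 0.888% of all probe sets), 7 were lower with the block (against 2.29%) and 7 had a smaller span (against 1.76%). The median level difference was -3.21. Fes1A, a partner of HSP70, differed in level by -3.14, AT2G20560, a J-domain protein, by -3.30, HSA32, which prolongs acquired heat tolerance, by -2.07 and Hop2 by -1.42, all 4 called. Hop1, the family member without a heat-to-control gap in Col-0, had 265.7, 276.5, 199.9 and 172.9 in Col-0 and 230.4, 258.0, 198.7 and 209.0 in QK. Its level differed by -0.01 (adjusted p = 0.99). The HSP70 genes Hsp70-2 and AT3G09440 differed by -2.24 (adjusted p = 0.0727) and -2.26 (adjusted p = 0.179), and both passed with the block (adjusted p = 0.00463 and 0.00206).

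**Figure D3:**
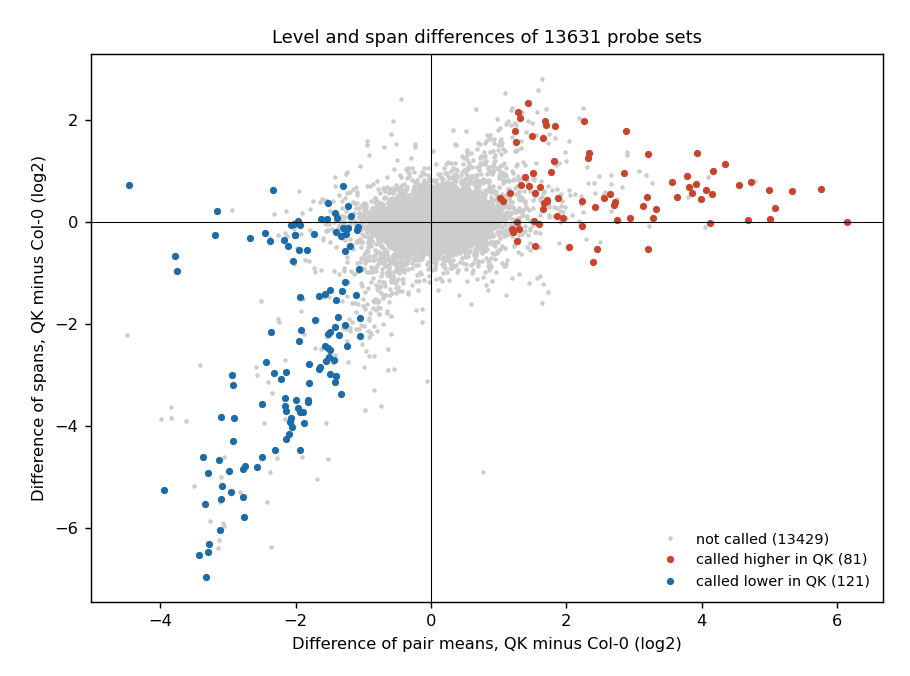
Difference in span (vertical, log2) against difference in level (horizontal, log2), QK minus Col-0, 1 point per tested probe set. Probe sets called lower split into those with smaller spans in QK, down to a difference of -6.96, and those with span differences near 0.

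A further set of heat-inducible genes lay below Col-0 even in the cool state. AT3G14200, a J-domain protein, had 144.3, 1658.4, 1945.2 and 147.8 in Col-0 and 68.0, 46.0, 41.9 and 67.8 in QK. AT1G26800, a RING-type ubiquitin ligase for misfolded proteins, had 277.1, 4078.2, 3972.4 and 275.8 in Col-0 and 226.8, 103.5, 96.4 and 110.6 in QK. SGT1A, a co-chaperone of HSP90, had 192.9, 2106.6, 2782.5 and 282.1 in Col-0 and 111.3, 154.8, 96.6 and 162.0 in QK. In all 3 genes every QK array lay below the dimmest Col-0 array. Levels differed by -2.93 ± 0.16 (adjusted p = 0.00891), -2.93 ± 0.22 (adjusted p = 0.0137) and -2.43 ± 0.21 (adjusted p = 0.0185). Ws had bright heat arrays as Col-0 did in each, and in AT3G14200 its signals were 161.4, 1873.5, 121.1 and 1747.3. In AT1G26800 they were 223.1, 3225.4, 215.5 and 3732.7. The Ws control arrays there also lay below the dimmest Col-0 array, so a cool level under Col-0 was not particular to QK. The 121.1 of AT3G14200 lay under Col-0 too, but above every QK array.

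AT1G52870, of the peroxisomal membrane protein 22 kDa family, had 1031.3, 2258.7, 2964.8 and 1193.8 in Col-0 and 420.7, 294.8, 398.1 and 528.2 in QK (log2 difference -2.03, adjusted p = 0.0387). AT2G21860, related to violaxanthin de-epoxidase, had 192.2, 180.2, 241.2 and 284.6 in Col-0 and 34.6, 40.0, 49.8 and 45.6 in QK (-2.03, adjusted p = 0.0404). QK lay below every Col-0 array in both. In Ws AT2G21860 had 48.9 and 74.9 in the control arrays and 217.4 and 327.2 in the heat arrays, so it reached the Col-0 level in heat alone.

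The other lower genes were low in QK at both temperatures. In 40 of the 121 lower probe sets the span was not called different, with medians of log2 0.36 and 0.33 in Col-0, and in all 40 the QK arrays lay below the Col-0 arrays. Such a lack of overlap was seen in 3.81% of all tested probe sets with QK lower, and in 9.67% in either direction. AT3G47250, a gene of the DUF247 family, had 374.6, 271.7, 160.0 and 514.9 in Col-0 and 8.1, 8.4, 6.6 and 8.0 in QK. AT1G23130 had 1767.5, 1770.4, 1287.9 and 1286.4 in Col-0 and 92.1, 38.9, 36.8 and 56.5 in QK. AT1G23960, a gene of the DUF626 family, had 236.1, 288.9, 169.2 and 236.6 in Col-0 and 11.1, 11, 8.7 and 12.3 in QK. The lines lay an order of magnitude apart in each gene, with no overlap. Differences were -3.75 ± 0.13 (adjusted p = 0.00822), -4.47 ± 0.48 (adjusted p = 0.0283) and -3.19 ± 0.16 (adjusted p = 0.00891).

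Ws was as low as QK in several of these genes. For AT3G47250 its signals were 7.8, 7.6, 8.1 and 9.2, and for AT1G23960 they were 11.2, 10.6, 12 and 10.1. For AT1G23130 they were 413.2, 432.2, 148.2 and 162.1, between both lines. The genes AT5G26270, AT4G02540, AT1G67865 and AT1G11280, the last an S-locus lectin kinase, differed from Col-0 by -2.46, -2.18, -2.11 and -2.01, and all 4 were called. Their Ws levels were at 0.92 to 1.05 of the way from Col-0 to QK. Apart from AT1G23130, all Ws and QK signals of these genes lay under 40.3, the lowest 35th percentile of an array. They passed the filter through Col-0 alone, which by itself means that Ws was dim there as QK was. The part of accession differences, in RNA or in the sequence under the probes, in the low signal of these genes was not tested.

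**Figure D4:**
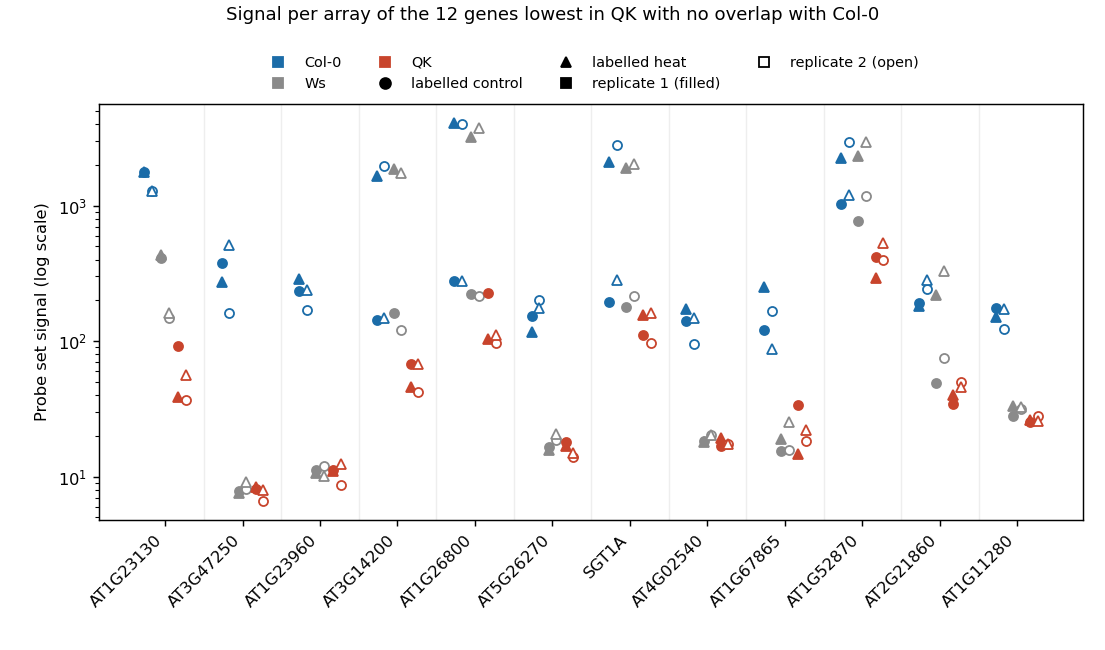
Signals of the 12 genes with the largest called differences below Col-0 whose QK and Col-0 arrays do not overlap, on a log axis, 1 point for each of the 12 arrays, with colours for lines, circles for the label control, triangles for heat, filled for replicate 1 and open for replicate 2. Ws lies with QK in AT3G47250, AT1G23960, AT5G26270, AT4G02540, AT1G67865 and AT1G11280, and shows the bright heat arrays of Col-0 in AT3G14200, AT1G26800 and SGT1A.

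The level of Ws was placed between both lines for all called probe sets, with 0 for the Col-0 level and 1 for the QK level. Ws shares no arrays with either line but entered the fit, so its place is a description. Among the 81 higher probe sets Ws lay nearer to Col-0 in 76 and nearer to QK in 5, with a median place of 0.00. Of these 81, 45 had passed the filter only through QK arrays, which by itself means that Ws was largely dim there as Col-0 was. In 35 of the 81 all 4 Col-0 and all 4 Ws arrays lay at or under the 35th percentile. Among the 67 lower ones with overlapping arrays it lay nearer to Col-0 in 65 and nearer to QK in 2, with a median of -0.02. Among the 54 lower ones without overlap it lay nearer to Col-0 in 25 and nearer to QK in 29, with a median of 0.66, and 26 of them were at 0.75 or more. Of these 54, 18 had passed the filter only through Col-0 arrays, which by itself means that Ws was dim there as QK was.

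**Figure D5:**
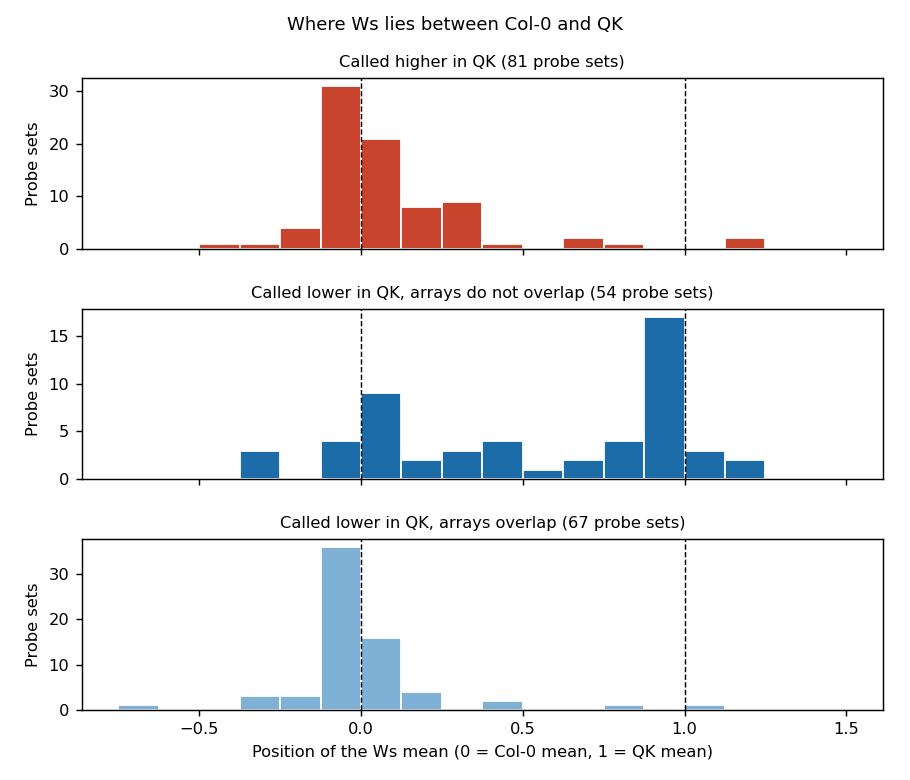
Place of the Ws level on the line from Col-0 (0) to QK (1), as counts of called probe sets, for those higher in QK, lower without overlap and lower with overlap. The higher and the overlapping lower probe sets gather at 0, and the lower ones without overlap form groups near 0 and near 1.

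Among genes higher in QK, AT1G50290 was bright in Ws too. It had 20.9, 13.8, 15.9 and 19.8 in Col-0, 643.9, 376.3, 223.9 and 189.9 in QK and 523.7, 439.5, 452.0 and 384.4 in Ws. QK differed from Col-0 by 3.33 ± 0.40 (adjusted p = 0.0358). AT2G15560 had 17.0, 21.6, 56.6 and 30.7 in Col-0, 444.4, 203.0, 301.9 and 223.0 in QK and 500.5, 268.8, 434.6 and 289.6 in Ws (2.71, adjusted p = 0.0245). AT5G15420 differed by 2.32 and AT4G17470 by 1.82, both called, with Ws at 0.74 and 0.69 of the way to QK.

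Called genes lay on all 5 chromosomes. Of 7128 tested genes placed in the gene order, 118 were called, 93 with Ws nearer to Col-0 and 25 with Ws nearer to QK. The latter made up 0.321% of tested genes on chromosome 1, 0.375% on chromosome 2, 0.207% on chromosome 3, 0.678% on chromosome 4 and 0.292% on chromosome 5, from 6, 4, 3, 7 and 5 genes.

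A wider heat-to-control gap in QK was found in genes of the endoplasmic reticulum. CRT1b, a calreticulin that folds glycoproteins, had 533.1, 614.5, 910.9 and 827.0 in Col-0 and 520.0, 4476.0, 1270.2 and 6978.3 in QK. Its span was log2 0.20 and 0.14 in Col-0, 0.51 and 0.24 in Ws, and 3.07 and 2.44 in QK. The QK heat arrays were bright and the QK control arrays near Col-0. The span differed by 2.59 ± 0.30 (adjusted p = 2.2e-04), and the level by 1.58 ± 0.41 (adjusted p = 0.189, and 0.00343 with the block). ATERDJ3B, a J-domain protein of the endoplasmic reticulum, had 398.5, 531.6, 582.9 and 442.9 in Col-0 and 371.8, 1518.5, 488.4 and 2325.1 in QK, with a span difference of 1.71 (adjusted p = 0.00163). AT5G07340, a calnexin, had a span difference of 1.15 (adjusted p = 0.00328). All 3 tested genes of that list thus had a larger span in QK, against 0.88% of all probe sets, while 0 of 3 were called in level.

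The widest gain of span was that of AT4G34630, with 152.5, 310.0, 566.9 and 333.5 in Col-0 and 234.6, 2921.2, 312.3 and 4392.7 in QK (span difference 2.80 ± 0.38, adjusted p = 5.3e-04). AT3G19920, AT3G10120 and AT1G36060 gained 2.23, 2.21 and 2.17, and AT1G36060 is an AP2/ERF transcription factor. AT1G64380, of the same factor family, gained 2.15, but in the opposite direction of temperature. Its signals in QK were 116.7, 13.7, 460.3 and 35.6, high in the control arrays, and in Ws they were 109.9, 10.8, 20.7 and 8.3. A pair of auxin genes gained span from a low cool level. GH3.3, an enzyme that conjugates auxin, had 248.4, 298.5, 274.1 and 155.6 in Col-0 and 80.2, 360.2, 101.3 and 486.0 in QK, with a span difference of 1.53 (adjusted p = 0.00318) and a level difference of -0.24 (adjusted p = 0.743). IAA29, a repressor of auxin response, gained 1.47 (adjusted p = 0.0155). XTH33 and XTH16, both xyloglucan enzymes, gained 1.90 and 1.76, and UGT76B1 gained 1.88.

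Lists for organs and reference genes showed few or no calls in level. Calls were few over all probe sets too (1.48%, or 4.66% with the block), so nothing is read from 0 calls in short lists. Of 7 nuclear photosynthesis genes 0 were called, with a median difference of -0.15. RCA, the Rubisco activase, had 12758.6, 8543.4, 11189.3 and 13904.5 in Col-0 and 12063.4, 9905.4, 13775.9 and 12768.4 in QK, and the most different member, LHCB4.2 of the light-harvesting antenna, differed by -0.65 (adjusted p = 0.614). Of 3 reference genes 0 were called and the median was 0.17, and PEX4 differed by 0.20. Of 3 glucosinolate genes 0 were called, although BCAT4, the first enzyme of methionine chain elongation, was lower in all 4 QK arrays (-1.20, adjusted p = 0.308). With the replicate block 0 genes of these 3 lists were called. Of 66 plastid genes 0 were called in level without the block, with a median of -0.32. With the block 1 was higher (against 2.37% of all probe sets) and 5 were lower (against 2.29%). rps4, of the plastid ribosome, differed by 1.90 and ndhA, of the plastid NDH complex, by -1.52 (adjusted p = 0.35 and 0.539, and 0.00683 and 0.00567 with the block).

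Of 6 root genes 0 were called, against 1.48% of all probe sets, and the median was 0.12. JAL33, a jacalin-type lectin, stood out by its arrays. It had 1503.3, 1026.3, 1101.6 and 1281.0 in Col-0 and 44.6, 33.0, 36.1 and 39.1 in Ws. In QK it had 45.2 in control replicate 1 and 878.9, 1759.8 and 1678.6 in the other arrays. One QK array thus lay at the Ws level and the others near Col-0, and the level difference was -0.95 (adjusted p = 0.758). The same array was the dimmest QK array for BGLU19, LEA18 and ICL above, and its part in those values was not tested.

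Of 9 mitochondrial genes 1, nad1 of respiratory complex I, was called lower, against 0.888% of all probe sets. Its probe set had 16.1, 176.9, 138.6 and 13.5 in Col-0, 9.0, 8.3, 7.8 and 9.2 in QK and 8.8, 8.4, 8.7 and 9.3 in Ws. The Col-0 arrays with bright heat shock RNAs were those with bright nad1, and QK and Ws were dim throughout. The level differed by -1.57 ± 0.14 (adjusted p = 0.0198). AT2G07777, on chromosome 2, had the same pattern, with 20.8, 196.0, 261.0 and 13.3 in Col-0 and 11.5, 7.9, 9.6 and 9.6 in QK (-1.80, adjusted p = 0.0118). Ws lay at 0.99 of the way from Col-0 to QK for nad1 and at 0.95 for AT2G07777. Both passed the filter through Col-0 arrays alone, which by itself means that Ws was dim as QK was. The part of accession differences in both signals, and which RNA the nad1 probe set reads, was not tested.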

How the data were processed

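Biotin-labelled cRNA of 12 seedling samples was hybridised to Affymetrix arrays. The deposited values are signal intensity on a linear scale, 1 per probe set and array, and the submitters' processing notes name GCOS 1.4. The summary algorithm and scaling are not given in the sources used here. Array medians were 75.6 to 87.3, and no further normalization was applied. Precision is limited by the number of arrays. Groups follow the sample labels.

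Of 18465 probe sets, 13631 lay above the 35th percentile of their array in at least 2 arrays and were tested as log2(signal + 16), 7294 of them with exactly 1 gene in the annotation used. Gene order came from a reference table of assembly TAIR10.1. For each line and replicate the control and heat values were averaged, and their absolute difference was the span. limma 3.58.1 in R 4.3.3 was fitted to the 6 averages, or 6 spans, of Col-0, Ws and QK with a mean trend, two-sided, with Benjamini-Hochberg adjustment over all tested probe sets. A call needs an adjusted p under 0.05 and 2-fold. The fits were tested on simulated data.

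Replicate numbers came from the labels. Across probe sets, the replicate 2 minus replicate 1 differences of the averages correlated at 0.856 (Col-0 and Ws), 0.731 (Col-0 and QK) and 0.715 (Ws and QK), so the numbers were taken to pair the arrays. The blocked fit is given for the counts and for part of the named genes whose call it changes.

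Named genes are the 12 highest and 12 lowest called genes without overlap of arrays, the 6 highest and lowest with Ws nearer to Col-0 and to QK, the 6 largest losses and gains of span, and up to 3 called members per list and direction or otherwise 2 with the largest difference. Further list members are named beside them, chosen after their values were seen. Members and lists were chosen with earlier results of these data known. Alternatives were the replicate block, the lines and arrays in the fit, averaging of raw signals, normalization, pseudocount, filter, variance trend, fold minimum, and leaving out each pair of arrays.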

Additional observations from a re-analysis of the deposited data

Results flagged for a closer look

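The heat-to-control gap differed between QK and Col-0 by a test of the difference itself at 240 probe sets with a smaller and 120 with a larger span in QK (limma, 2 spans per line). Among the named genes the span difference, QK minus Col-0 on the log2 scale, was -6.96 for AT1G52560, -6.476 for AT1G71000, -6.041 for AT5G37670, -5.968 for AT1G53540, -5.899 for ATHSP22.0 and -5.527 for Hop3. It was 2.804 for AT4G34630, 2.587 for CRT1b, 2.23 for AT3G19920, 2.212 for AT3G10120, 2.166 for AT1G36060 and 2.147 for AT1G64380. In AT1G64380 the Ws spans were unequal, log2 2.23 in replicate 1 and 0.59 in replicate 2.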

How the results depend on the processing

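Among 76 gene results none changed sign, and with the replicate block 10 gained a call and 0 lost one. Calls were lost by 39 with QK and Col-0 only, by 42 and 41 without Col-0 replicate 1 and 2, by 39 without either Ws pair, by 19 and 24 without QK replicate 1 and 2, and by 12 as separate arrays. Counts of probe sets higher and lower in QK were 323 and 312 with the replicate block, 0 and 0 with QK and Col-0 only in limma, 326 and 311 with QK and Col-0 only and the block (added after seeing the data), and 138 and 199 on the log2 of the mean signal. At 4-fold or more they were 45 and 56. As 12 separate arrays, by label, 202 were higher and 85 lower, of which 77 and 38 were among the 81 and 121. Of all settings this alone used the treatment labels, with which the data of Col-0 replicate 2 disagreed. Leaving out 1 pair of arrays gave 0 to 73 higher and 0 to 43 lower. Spans at least 4-fold apart were 142 smaller and 16 larger, and leaving out 1 pair gave 106 to 227 smaller and 27 to 197 larger. The other settings for normalization, pseudocount, filter and trend kept these 4 counts within 1.5 times. The cause of these shifts was not tested, apart from fewer pairs in the fit and a stricter fold. Each line has 2 pairs, dim signals depend on the added 16, and detection calls were not used.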

Other observations

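Other called genes, chosen after their values were seen, are not named above. Among them were DELTA-VPE and BETA-VPE, members of the vacuolar processing enzyme family. DELTA-VPE had 9.4, 9.4, 14.9 and 17.4 in Col-0 and 148.8, 254.5, 280.1 and 287.0 in QK (log2 difference 3.14, limma adjusted p = 0.0121), and BETA-VPE had 30.3, 26.2, 39.3 and 80.4 in Col-0 and 211.1, 357.4, 532.8 and 437.5 in QK (2.75, adjusted p = 0.0426). PDF1.4, a plant defensin, had 20.2, 26.7, 17.0 and 15.1 in Col-0 and 219.3, 124.2, 191.8 and 172.0 in QK (2.42, adjusted p = 0.0117). In all 3 genes the QK arrays lay above the Col-0 arrays, and Ws lay with Col-0. Apart from the 80.4 of BETA-VPE, the Col-0 signals lay under 40.3, the lowest 35th percentile of an array. Genes dim outside QK are tested only where QK is bright, so the lack of overlap and the place of Ws are not read further.

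TIL, a lipocalin induced by temperature, had 1023.7, 6880.6, 6902.7 and 1349.4 in Col-0 and 1191.5, 882.6, 886.4 and 1101.8 in QK (-1.49, adjusted p = 0.0245), so that QK stayed near the cool Col-0 level on every array. LBD16, a regulator of lateral root formation, had 28.3, 32.9, 31.9 and 25.3 in Col-0 and 65.7, 152.0, 70.3 and 129.6 in QK (1.33, adjusted p = 0.0229), with every QK array above Col-0. The Col-0 signals of LBD16 also lay under 40.3, and the lack of overlap is not read further.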
